A study of Mus musculus with 8 samples.

Results

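Of 6587 named mouse genes on the arrays, 7 make up a list for the inner root sheath and medulla of the hair follicle: Krt71, Krt27, Tgm3, Padi3, S100a3, Gata3 and Trps1. They were chosen by name, as rows whose RefSeq accession belongs to one of these genes. Earlier results of these data were known when they and the other gene lists below were chosen, so that shares set beside all genes are descriptions. Each had a single probe, and all 7 passed the filter on missing values. Their ratios were measured in skin of 7 day old near naked hairless mutant pups against skin of 7 day old wild type pups, on 8 arrays hybridised with RNA of both kinds in 2 dyes. Zygosity, strain, sex and body site of the skin do not appear in the labels. The study used 5 biological replicates of a single litter, and which animals went on which array is not recorded in the labels. Arrays are therefore the n of every test, and p-values are smaller than those that animals would give.

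The inner root sheath is a set of concentric cell layers that surrounds the growing hair, moulds it and breaks down below the skin surface. Its cells fill with keratin filaments set in trichohyalin. Enzymes then harden this matrix: peptidylarginine deiminases turn arginine into citrulline and transglutaminases tie protein chains together. The medulla is the core of the hair shaft and hardens with the same enzymes. Near naked hairless is a mutation of the hairless gene, whose product is a corepressor of nuclear receptors needed for a normal hair coat.

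Ratios are log2 of mutant over wild type. No label states this direction, which is likely because channel 1 is called sample and the design names mutants first. The base of 2 is assumed. Mutant RNA was labelled with Cy5 on 4 arrays (2, 4, 6 and 7), and Cy3 was used for it on the other 4 (1, 3, 5 and 8). The table was read as already turned to one direction, because differences among 232 repeat spots of Gapdh, which all report 1 gene, had negative correlations in all 16 pairings of arrays with unlike dyes and positive ones in all 12 pairings with like dyes. Between 41.3% and 88.3% of the 23232 rows held a value on an array, and the SD of its values ran from 0.57 to 1.60. A 2-colour ratio gives no level of a transcript, so the skin label could not be set against the levels of marker genes. In such bulk skin, fewer cells of a type and less RNA per cell cannot be told apart.

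The upstream sequences of the keratin genes Krt71 and Krt27 are shown first, since these were the members with the lowest ratios. They are the 250 bases before the annotated start, from RefSeq on GRCm38.p6, written 5′ to 3′ along the gene. Krt71 lies at chr15:101743098-101743347 on the minus strand and Krt27 at chr11:99351119-99351368 on the minus strand. Capitals mark TATAAA, the core of the element that positions transcription starts. They also mark 2 spellings of the motif bound by proteins like Gata3, which are AGATAA in both windows and, in Krt27 only, also TGATAA further upstream.
Krt71: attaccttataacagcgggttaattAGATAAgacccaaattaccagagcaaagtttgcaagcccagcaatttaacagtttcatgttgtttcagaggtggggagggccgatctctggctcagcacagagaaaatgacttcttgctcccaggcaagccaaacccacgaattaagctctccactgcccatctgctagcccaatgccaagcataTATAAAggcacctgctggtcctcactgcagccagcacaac
Krt27: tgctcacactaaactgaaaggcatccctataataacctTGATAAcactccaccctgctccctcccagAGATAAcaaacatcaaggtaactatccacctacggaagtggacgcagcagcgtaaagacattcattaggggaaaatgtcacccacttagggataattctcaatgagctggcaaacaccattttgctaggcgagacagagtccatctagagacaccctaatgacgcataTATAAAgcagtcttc
Both windows held TATAAA, 40 bases before the start in Krt71 and 15 bases before it in Krt27. The first spelling of the GATA motif lay 225 bases before the start in Krt71 and 183 in Krt27, and the other spelling 212 bases before it in Krt27. Among 32851 annotated promoters searched in the same window and on both strands, TATAAA was found in 12.4%, the first spelling of the GATA motif in 9.99% and the other in 7.94%. Both TATAAA and the first spelling were found in 1.92%. None of the marked matches overlapped another. Of the other members with a promoter in the table, Tgm3 and 1 of the 4 promoters of S100a3 held TATAAA, and no promoter of Tgm3, Padi3, S100a3 or Gata3 held either spelling of the GATA motif. CTTTGAA, a spelling of the motif of LEF1, was in 4.46% of all promoters and in none of these. A match is a description of letters and was not tested as a binding site.

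The keratin gene Krt71 was lower in mutant skin, at 0.58 times the wild type signal. Krt71 encodes a type II keratin of all layers of the inner root sheath, and its mutation underlies the wavy coat of Caracul mice. Its log2 ratios were -1.37, -0.53, -0.81 and -1.34 on the arrays with the mutant in Cy5 (2, 4, 6 and 7). They were -1.07, -0.20, -0.30 and -0.69 on those with the mutant in Cy3 (1, 3, 5 and 8). All 8 values lay below 0, and the values of both orientations overlapped. Of the 1613 genes with 8 values, 2.42% were below 0 on all 8 arrays. The fitted mean was -0.79 ± 0.18 (SE, 8 arrays), with a 95% interval from -1.19 to -0.39 and an adjusted p of 0.0362 (limma, Benjamini-Hochberg over 3779 genes). As a ratio of signals, that interval runs from 0.44 to 0.76.

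Krt71 was the 1 member of 7 past the test, and no member was higher. Over all genes tested, 2.80% were lower and 0.662% were higher. At an unadjusted p under 0.05, 2 members of 7 were lower and none was higher (limma), where 9.31% of all genes tested were lower and 10.2% higher by that measure. The call of Krt71 was narrow: without array 3 it stayed (adjusted p = 0.0361), and it was lost without any other single array, with adjusted p up to 0.139, while the ratio stayed between -0.87 and -0.71. Reading the table as Cy5 over Cy3 only swaps the mean ratio with the part that follows the dyes. So read, the ratio of Krt71 was -0.22 and did not pass (adjusted p = 0.412, limma).

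**Figure D1:**
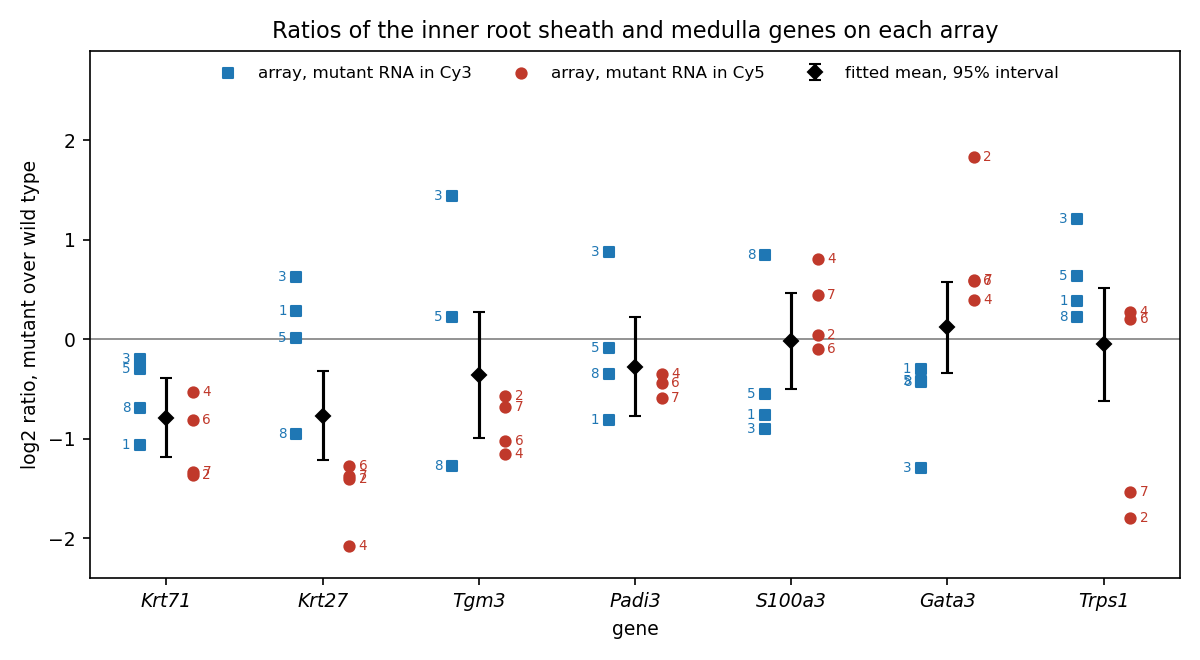
Log2 ratio of mutant over wild type (vertical axis) for the 7 genes (horizontal axis); each square or circle is 1 array, with its number, split by the dye of the mutant RNA, and the diamond is the fitted mean with its 95% interval. All 8 values of Krt71 lie below 0, while those of Krt27 and Gata3 separate by dye.

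Ranked among all named genes on the same array, which sets aside the unequal spread of the arrays, Krt71 stood between the 5.25th percentile on array 7 and the 42.0th on array 3, with a median of 18.3. It lay below the 25th percentile on 6 of 8 arrays. Krt27 stood at a median percentile of 14.5, from 2.08 on array 4 to 67.9 on array 1. The medians of Tgm3 and Padi3 were 17.6 and 30.7. S100a3 and Gata3 lay near the middle, at 49.1 and 48.3, and Trps1 at 63.6.

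Krt27 encodes a type I keratin of the inner root sheath, the kind that pairs with a type II keratin such as Krt71 to build a filament. Its log2 ratios with the mutant in Cy5 were -1.40, -2.08, -1.27 and -1.37 on arrays 2, 4, 6 and 7. With the mutant in Cy3 they were 0.29, 0.62, 0.01 and -0.95 on arrays 1, 3, 5 and 8. The 4 values with the mutant in Cy5 all lay below the 4 others, a split that 10.8% of the 1613 genes with 8 values showed in this direction. The fitted mean was -0.77 ± 0.21 (SE, 8 arrays), with an adjusted p of 0.0648 (limma), so that Krt27 did not pass. Its 95% interval ran from -1.22 to -0.32. The dye part of Krt27, by which its ratio moves up or down as the dyes are swapped, was -0.76 ± 0.21 (SE), close in size to the genotype part, with an adjusted p of 0.0626 (limma). Krt27 passed the genotype test under 4 of the 10 other settings that keep every array or a fixed set of them, and also without array 3, as detailed in the closing section.

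The fitted means of Krt71 and Krt27 were alike while their arrays were not. The ratio of Krt71 minus that of Krt27 ran from -1.35 on array 1 to 1.55 on array 4. It was below 0 on arrays 1, 3 and 5, where the mutant was in Cy3, and above 0 on all 4 arrays with the mutant in Cy5 and on array 8.

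**Figure D2:**
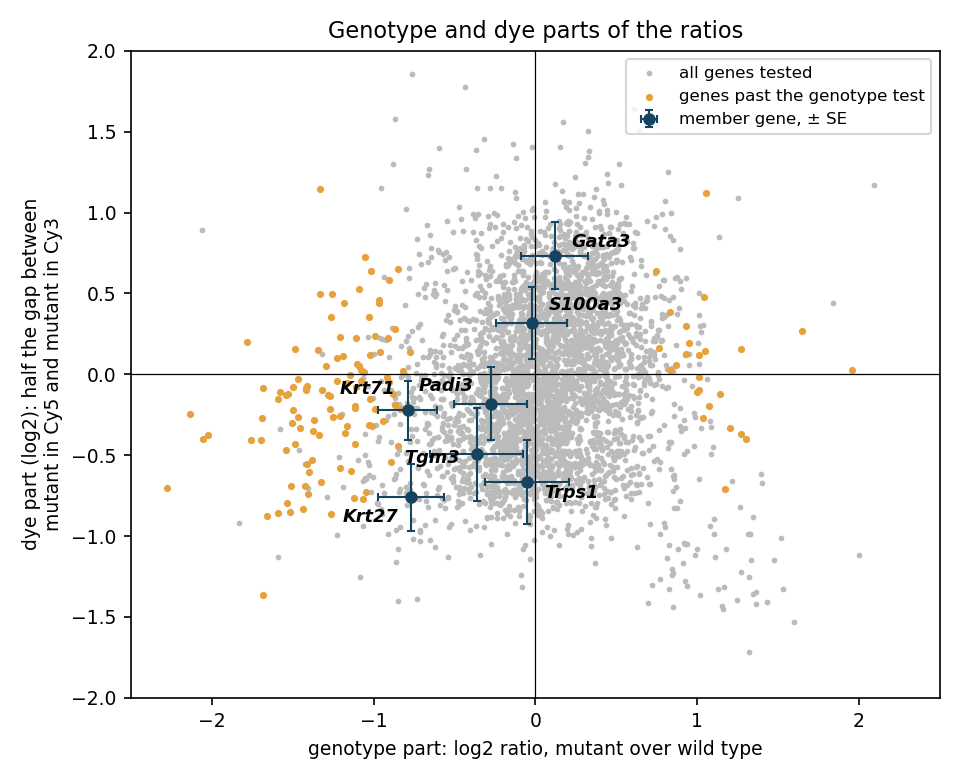
Genotype part of the log2 ratio (horizontal axis, mutant over wild type) against its dye part (vertical axis, log2, positive where the ratio is higher with the mutant in Cy5) for 3779 genes, with the 7 members as points ± SE. Krt71 stands at -0.79 with a dye part of -0.22, Krt27 at -0.77 with -0.76, and Gata3 at 0.12 with 0.73.

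Both enzymes of the list had fitted ratios below 0 and neither passed. Tgm3 is the transglutaminase of hair follicle and upper epidermis that cross-links trichohyalin and keratin, and its mutation gives the wavy coat of wellhaarig mice. Its log2 ratios were -0.57, -1.15, -1.02 and -0.68 on arrays 2, 4, 6 and 7, and 1.44, 0.23 and -1.27 on arrays 3, 5 and 8, with no value on array 1. The values with the mutant in Cy5 were all below 0, and those with it in Cy3 lay on both sides of 0 and overlapped them. The fitted mean of Tgm3 was -0.36 ± 0.29 (SE, 7 arrays, adjusted p = 0.516, limma), with an interval from -0.99 to 0.27. It was -0.69 without array 3 and -0.01 without array 8, so that its size hung on these arrays.

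Padi3 is the peptidylarginine deiminase that modifies trichohyalin in the inner root sheath and medulla. In people, PADI3 and TGM3 are both genes of uncombable hair syndrome. The log2 ratios of Padi3 were -0.35, -0.44 and -0.59 on arrays 4, 6 and 7, and -0.81, 0.88, -0.09 and -0.36 on arrays 1, 3, 5 and 8, with no value on array 2. Array 3 was the 1 array above 0, and 6 of 7 were below. The fitted mean was -0.28 ± 0.22 (SE, 7 arrays, adjusted p = 0.530, limma), with an interval from -0.77 to 0.22. Without array 3, Padi3 was below 0 on all 6 arrays left, at -0.44 (adjusted p = 0.225, limma). Without array 1 it was -0.16 (adjusted p = 0.804, limma).

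S100a3 is a calcium-binding protein rich in cysteine that is made in the differentiating hair and is a substrate of Padi3. Its log2 ratios were 0.04, 0.80, -0.10 and 0.44 on arrays 2, 4, 6 and 7, and -0.76, -0.90, -0.55 and 0.85 on arrays 1, 3, 5 and 8. There were 4 arrays above 0 and 4 below, and the orientations overlapped through array 8. The fitted mean was -0.02 ± 0.22 (SE, 8 arrays, adjusted p = 0.965, limma). The interval, as a ratio of signals, ran from 0.70 to 1.38, so that a change within these bounds could not be told from none. The median of the fitted ratios of all genes tested was 0.05.

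The transcription factors of the list did not pass either. Gata3, a zinc finger factor needed for the inner root sheath to form, had log2 ratios of 1.84, 0.40, 0.59 and 0.59 on arrays 2, 4, 6 and 7, and of -0.30, -1.29, -0.42 and -0.43 on arrays 1, 3, 5 and 8. Every array with the mutant in Cy5 was above 0 and every other array below it, and 18.3% of the 1613 genes with 8 values had the Cy5 arrays all above the Cy3 arrays. The genotype part was 0.12 ± 0.21 (SE, adjusted p = 0.791, limma) and the dye part 0.73 ± 0.21 (SE, adjusted p = 0.0673, limma). The mean was 0.85 ± 0.66 (SD, n = 4) with the mutant in Cy5 and -0.61 ± 0.46 (SD, n = 4) with it in Cy3.

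Trps1, a repressor of the GATA family whose human mutations cause sparse hair in trichorhinophalangeal syndrome, had the widest scatter of the list (SD 1.05 over 8 arrays). Its log2 ratios were -1.80, 0.27, 0.20 and -1.54 on arrays 2, 4, 6 and 7, and 0.38, 1.21, 0.64 and 0.22 on arrays 1, 3, 5 and 8. Arrays 2 and 7 were low and the other 6 were above 0. The fitted mean was -0.05 ± 0.26 (SE, adjusted p = 0.938, limma), with an interval from -0.62 to 0.52, and it turned to 0.04 after quantile normalization. The dye part of Trps1 was -0.66 ± 0.26 (SE, adjusted p = 0.116, limma).

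No dye part of the 7 members passed (limma), against 1.75% of all genes tested, and 3 of the 7 had an unadjusted p under 0.05 (Krt27, Gata3 and Trps1), where 30.9% of all genes did. The dye part was below 0 for Krt71, Krt27, Tgm3, Padi3 and Trps1 and above 0 for S100a3 and Gata3. Means by orientation were -1.01 ± 0.41 (SD, n = 4) and -0.57 ± 0.40 (SD, n = 4) for Krt71 with the mutant in Cy5 and in Cy3, so that the keratin was lower in both. For Krt27 the means were -1.53 ± 0.37 (SD, n = 4) and -0.01 ± 0.68 (SD, n = 4).

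On every array, members lay on both sides of 0. The gap between the lowest and the highest member was smallest on array 5, from -0.55 for S100a3 to 0.64 for Trps1, and widest on array 2, from -1.80 for Trps1 to 1.84 for Gata3. Of the members with a value, 3 of 7 were below 0 on array 3, 4 of 6 on arrays 1 and 2, 4 of 7 on arrays 4 and 5, and 5 of 7 on arrays 6, 7 and 8. Over the 7 fitted means, 6 were below 0 with a median of -0.28, where 44.7% of all genes tested had a fitted mean below 0. Those 6 include S100a3 (-0.02 ± 0.22, SE) and Trps1 (-0.05 ± 0.26, SE), which could not be told from 0. Their sign turned in 5 and 3 of the 8 fits that leave out 1 array.

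**Figure D3:**
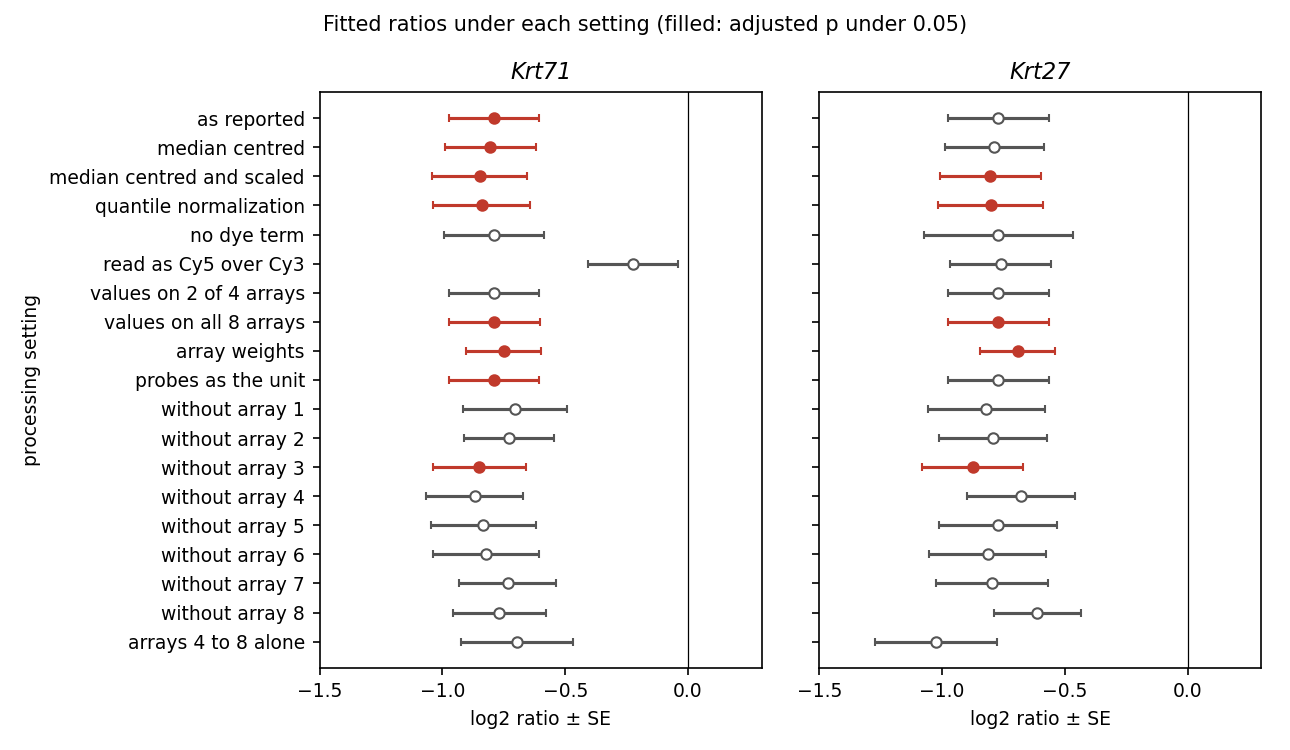
Fitted log2 ratio ± SE (horizontal axis) of Krt71 and Krt27 under each processing setting (vertical axis); filled points have an adjusted p under 0.05. Every point lies below 0; Krt71 passed in 8 of the 19 settings shown and Krt27 in 5.

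Among 8 tested markers of the hair shaft, the structure that the sheath encloses, 4 were lower (Krt31, Krtap9-1, Krtap14 and Krtap15), none was higher and 4 did not pass, with a median fitted ratio of -1.27. Over all genes tested, 2.80% were lower and 0.662% higher. This list, too, was chosen with earlier results of these data known. Krtap14 and Krtap15 each lost the call in 6 of the 8 fits that leave out 1 array, with adjusted p up to 0.163 and 0.098 (limma), and both lost it without a dye term. Krt31 lost it without array 5 (adjusted p = 0.0514, limma). The list median, taken over the shaft genes measured on an array, ran from -1.77 to -0.35 and so lay below 0 on all 8. The part of these shaft genes in the ratio of Krt71 was not tested. Their lowest fitted ratio was that of Krtap1-5, a shaft matrix protein, at -1.46, and the highest that of Krt35, a keratin of the early cortex, at 0.63, or 0.11 without array 8. Neither passed. With the table read as Cy5 over Cy3, the ratios of Krtap9-1 and Krtap15 turned to 0.35 and 0.50, which are their dye parts.

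Markers of other cells of skin moved in both directions. The calls below stand beside 2.80% lower and 0.662% higher over all genes tested. The fibroblast genes Vim (1.17) and Fbn1 (0.75) were higher among 3 tested, and the list median over arrays was above 0 on all 8. The call of Fbn1 (adjusted p = 0.0496, limma) was lost in 7 of the 8 fits that leave out 1 array, with adjusted p up to 0.136, and also after median centring (0.0630), without a dye term (0.203) and with values on 2 of 4 arrays allowed (0.0683). Cfd was higher (1.96) among 3 adipocyte genes with Car3 at -0.86, and the complement gene C1qb was lower (-1.37) among 4 immune genes with Tyrobp at 0.71. Krt1 of the suprabasal epidermis was higher (1.30) among 4, with Ivl at -1.06. C1qb lost its call without array 1, 5 or 6 (adjusted p up to 0.0604, limma) and Krt1 without the same arrays (up to 0.103). Without a dye term, Vim and Krt1 lost theirs (0.0554 for both). No melanocyte gene of 4 passed, with Pmel at 0.12 and Tyr at -0.50, and none of 3 vessel genes, with Cdh5 at 0.70 and Pecam1 at -0.72. Single tested markers of basal epidermis (Col17a1, 0.06, or -0.02 after quantile normalization) and of skeletal muscle (Tnnt3, -1.23) did not pass. The dye part of Col17a1 did pass, at 0.86 (adjusted p = 0.0479, limma). Dye parts were -0.99 for Tnnt3, -0.94 for Ivl and 0.64 for Fbn1. The values of each of these genes, and of Vim and Car3, split fully by dye. Of the 1613 genes with 8 values, 18.3% split with the Cy5 arrays above and 10.8% with them below. At an unadjusted p under 0.05, 0 melanocyte genes would count (limma). Among vessel genes, 1 would count as lower (Pecam1) and 1 as higher (Cdh5), and Tnnt3 would be lower. By that measure 3 fibroblast genes were higher and 0 lower. Lower were 1 adipocyte, 2 immune and 2 suprabasal genes, and higher were 1, 2 and 1. Of all genes tested, 9.31% were lower and 10.2% higher by that measure. Read as Cy5 over Cy3, which puts the dye part in place of the ratio, Vim stood at -0.71 and Krt1 at -0.40. None of the shaft or other marker genes past the test kept its call when so read. On arrays 4 to 8 alone, Krtap15 could not be fitted and none of the others among them kept it. The part of these cells in the ratios of the members was not tested.

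**Figure D4:**
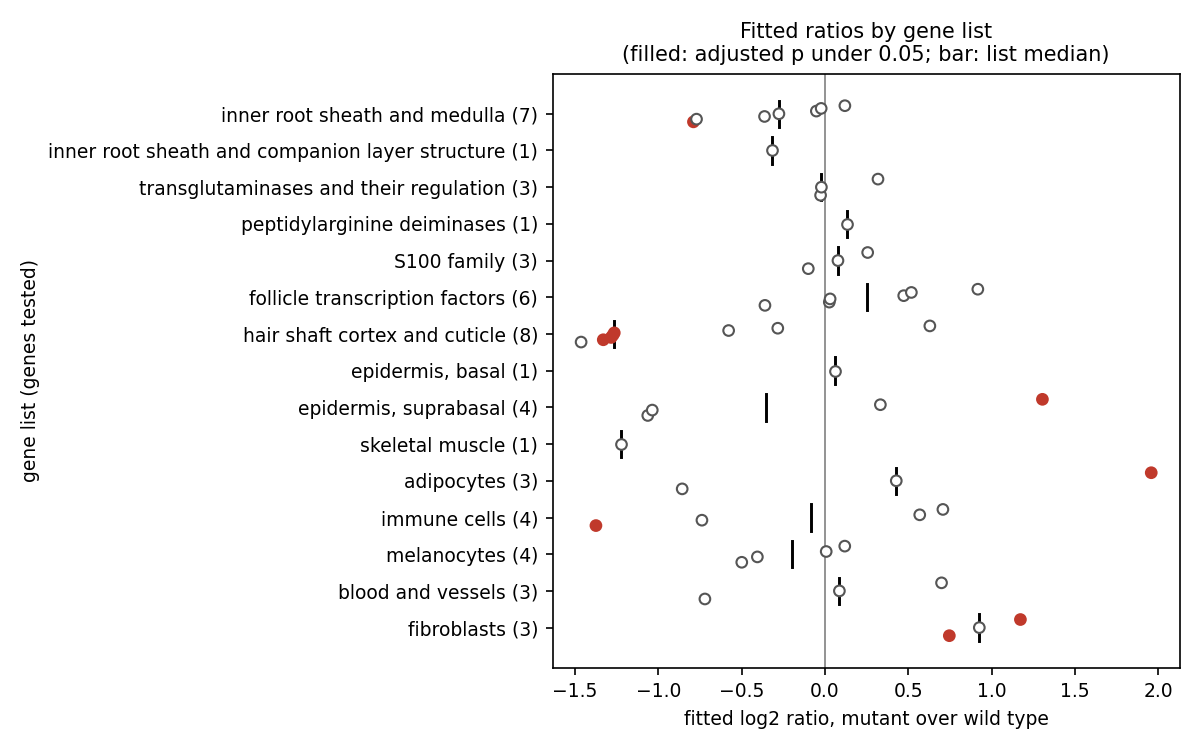
Fitted log2 ratios (horizontal axis, mutant over wild type) of the tested genes of each list (vertical axis, number tested in brackets); filled points have an adjusted p under 0.05 and the bar is the list median. The sheath and medulla list has a median of -0.28 and 1 filled point, Krt71, and the hair shaft list a median of -1.27 and 4 filled points.

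Relatives and partners of the members were read from 5 lists with 64 genes. Of these, 34 had a value on at least 1 array and 14 passed the filter. None of the 14 was past the test in either direction (limma). At an unadjusted p under 0.05, 1 was lower, the homeobox gene Msx1, and 2 were higher, Foxn1 and Prdm1, against 9.31% lower and 10.2% higher among all genes tested. By orientation, the means with the mutant in Cy5 and in Cy3 were -0.85 and 0.13 for Msx1, and 1.04 and -0.10 for Foxn1. Those of Prdm1 were 0.88 and 0.95. The values of Msx1 and of Foxn1 split fully by dye. In the direction of Msx1, 10.8% of the 1613 genes with 8 values did so, and 18.3% in that of Foxn1. Dye parts were -0.49 for Msx1 and 0.57 for Foxn1, beside fitted ratios of -0.36 and 0.47. The 14 had a median fitted ratio of 0.05, with 5 below 0 and 9 above.

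Of 15 listed structural genes of the sheath and of the companion layer next to it, 3 had a value: Krt6a, Krt6b and Krt16. The other keratins of that list and trichohyalin had none, so the list says little on the sheath itself. Krt6b was the 1 tested, at -0.32 ± 0.24 (SE, adjusted p = 0.501, limma). Of the list of transglutaminases, proteases and their inhibitors, 3 genes were tested: the epidermal transglutaminase Tgm1 was highest at 0.32, or 0.054 without array 8, and the tissue transglutaminase Tgm2 lowest at -0.03, beside the protease inhibitor Cst3 at -0.02. Padi2, the deiminase tested beside Padi3, stood at 0.13, on the other side of 0 from Padi3. In the S100 family, 3 genes were tested, from S100b at -0.10 to S100a6 at 0.26. Of 6 follicle transcription factors, Prdm1, a transcriptional repressor, was highest at 0.92 ± 0.39 (SE, adjusted p = 0.225, limma), or 0.35 without array 8, and Msx1 lowest at -0.36 ± 0.16 (SE, adjusted p = 0.236, limma).

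Both sheath keratins sit in the keratin gene clusters of the genome, and the ratios of their measured neighbours there lay on both sides of 0. On one side of Krt71 the nearest measured keratins were Krt6a, with 5 values from -0.24 to 1.16, and Krt6b at -0.32. On the other side were Krt1, which was higher at 1.30, and Krt4, with 6 values from -1.44 to 1.38. Krt6a and Krt4 did not pass the filter on missing values. Beside Krt27, measured keratins lay on 1 side alone, Krt12 at 0.22 and Krt23 at -0.23, neither past the test. The differences between Krt71 or Krt27 and their neighbours were not tested.

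Among the genes whose 8 values followed those of Krt71 most closely, out of 1612 others with values on all 8 arrays, were Ndufb3, Mcpt8, Nsmce1 and Gria4, with Pearson correlations over the 8 arrays from 0.935 to 0.942. Their fitted ratios ran from -0.27 for Mcpt8 to -0.07 for Nsmce1, and none of these 4 passed. Of the other members with 8 values, Trps1 was 25th in that order (0.88), Krt27 571st (0.42), S100a3 925th (-0.26) and Gata3 1474th (-0.76). For Krt27 the closest were Mre11a, Asic5, Dctn4, Eef1a2 and Slc39a9, from 0.949 to 0.957. Of these, Eef1a2, an elongation factor, was lower at -1.26 (adjusted p = 0.0101, limma), and all 5 had dye parts below 0, from -0.86 to -0.65. These correlations are a description over 8 points that share arrays, dye orientation and spread.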

How the data were processed

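Skin RNA of near naked hairless and wild type pups was compared on 8 spotted 2-colour arrays, taken as 1 group with array numbers from the labels. The authors deposited log2 ratios (base assumed) of the channels, with array medians from -0.13 to 0.13; their image analysis and normalization: not given in the sources used here. Hybridization followed standard protocols, per the labels. Left out were 864 blank, 275 buffer and 96 Alien control spots, and 232 Gapdh spots were averaged. Of 21997 probe rows, 6749 were named by RefSeq accession, all 7 members among them, 77 by synonym, and 15171 had no name. Names came from GRCm38.p6. Genes with values on at least 3 of 4 arrays of each orientation (3779) were fitted with a mean and a dye term in limma 3.58.1 (R 4.3.3), Benjamini-Hochberg threshold 0.05. On simulated ratios of 3779 genes, 43% of changes of size 1 (log2) were recovered. The simulated noise was independent and normal, with the same spread for all genes of an array, and few genes had a dye effect. The real data differ in this, so 43% is not the share that these arrays would recover. The number of arrays limits the precision.

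Members and lists were chosen with earlier results of these data known. The text names all members, context and marker genes past the test or at either end of their list, the 5 genes most like Krt71 and Krt27, and their measured keratin neighbours (1 gene like Krt71 is not reported here); Foxn1 is named beside a count, after its value was seen.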

Additional observations from a re-analysis of the deposited data

Results flagged for a closer look

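In 3 of 37 sets of values over arrays, Dixon's test at the 95% level set 1 array apart. Chance would give about 1 in 20, or 1.85, if all arrays had the same spread, which they did not. The arrays set apart (2, 3 and 8) had the widest spread, with SDs of 1.6, 1.3 and 1.1. The count therefore cannot be set against chance. Among the members, Padi3 had a log2 ratio of 0.88 on array 3, against a next highest value of -0.09. Among all named genes on array 3, that value stood at the 70.1th percentile. Outside the members, Krt35 stood at 4.83 on array 8 (next highest 1.67) and Pecam1 at -1.93 on array 2 (next lowest -0.85).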

How the results depend on the processing

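The count of members lower past the test, 1 in the report, was 2 (Krt71 and Krt27) after centring and scaling, after quantile normalization, with values on all 8 arrays and with array weights. It was 0 without a dye term, read as Cy5 over Cy3, with values on 2 of 4 arrays and with arrays 4 to 8 alone, and between 0 and 2 with 1 array left out. With arrays 4 to 8 alone, 0 of 4700 genes passed at all (limma), against 741 at an unadjusted p under 0.05. The count of members with a dye part, 0 in the report, was 2 after centring and scaling, after quantile normalization and with values on all 8 arrays, 3 with array weights, 1 (Krt71) read as Cy5 over Cy3, and between 0 and 3 with 1 array left out. Reading as Cy5 over Cy3 swaps the genotype and dye parts of the same fit, so all that it gives here restates those parts. Dye counts over all genes are not given for the alternatives, so the member counts cannot be set against them. The counts of members higher and of relatives past the test stayed at 0 under every alternative. Where 2 members were lower, lower calls among all genes rose too. They went from 106 of 3779 genes tested to 163 after centring and scaling, 222 after quantile normalization and 285 with array weights. With values on all 8 arrays they were 55 of 1613. Over all genes, lower calls were 80.9% of calls, against 63.4% with quantile normalization (222 lower, 128 higher), 66.6% with array weights (285 and 143), 67.9% with values on all 8 arrays (55 and 26), 92.2% without a dye term (59 and 5) and 6.06% read as Cy5 over Cy3 (4 and 62). Read as Cy5 over Cy3, ratios changed sign for S100a3 (0.32), Tgm2 (0.37), Padi2 (-0.38), Prdm1 (-0.036), Krtap9-1 (0.35), Krtap15 (0.50), Krt35 (-1.07), Krt1 (-0.40), Tyrobp (-0.68), Tyr (0.039), Cdh5 (-0.47), Vim (-0.71) and Krt12 (-0.049). With arrays 4 to 8 alone they did for S100a3 (0.27), Trps1 (0.037) and Tgm2 (0.16). Trps1 turned to 0.0099 after centring and scaling, 0.040 after quantile normalization and 0.16 with array weights, and Col17a1 to -0.032, -0.020 and -0.023. With 1 array left out, ratios on both sides of 0 were those of S100a3 (-0.22 to 0.071), Gata3 (-0.044 to 0.23), Trps1 (-0.22 to 0.13), Tgm2 (-0.22 to 0.10), Padi2 (-0.087 to 0.30), Col17a1 (-0.056 to 0.15) and Pmel (-0.021 to 0.29). Krt71, Krt27, Tgm3 and Padi3 stayed below 0 in every fit that gave them a value. The causes of these changes were not tested. Every ratio compares both genotypes on 1 array, so the fit is paired by array. Arrays that share an animal could not be joined, because the labels give arrays no shared numbers. The number of arrays limits the precision.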

Other observations

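Of the 34 relatives of the members with a value, 14 passed the filter on missing values. A looser filter added 11 more, and the rest stayed untested. With values required on 2 of 4 arrays of each orientation, which left 5627 genes, none of these 11 passed (limma) and 1 had an unadjusted p under 0.05. That was S100a14, an S100 protein of epithelia, chosen for mention after its values were seen. It was above 0 on 6 of 6 arrays, from 0.08 to 1.65, with a fitted ratio of 0.66 ± 0.27 (SE, adjusted p = 0.271, limma). Ctsl, a lysosomal protease needed for a normal hair cycle, was below 0 on 5 of 6 arrays and at 3.68 on array 8, so that its fitted ratio of 0.52 had the opposite sign to most of its values. Padi1, another deiminase, had 3 arrays above 0 and 3 below, with a fitted ratio of 0.02. Gata5 was at 0.18 with 3 arrays on each side of 0.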
